A study of Orbilia oligospora with 9 samples.

Results

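The comparison is that of hyphae labelled Aomdv1 mutant with wild-type (WT) hyphae in the nematode-trapping fungus Arthrobotrys oligospora, now named Orbilia oligospora. Its members are all loci with at least 1 FPKM (fragments scaled to the length of the locus and the size of the library) in at least 3 of the 6 libraries compared. This rule kept 9963 of the 12901 loci in the deposited table, 8858 of them with a locus tag and 1105 newly called loci without one. The 3 libraries labelled Aomdv1 mutant carry the genotype tag Mdv1 knockdown, while the study's design text names them as the deletion mutant ΔAomdv1, so the kind of allele is stated in 2 ways. The 3 WT libraries come from the same parent strain, ATCC 24927. Both groups were cultured at 28 °C on TYGA, an agar medium made with tryptone, yeast extract and glucose, and taken on day 5. Their treatment tag speaks of differentiating aerial hyphae. How many independent transformants the mutant libraries represent is not given in the sources used here.

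Mdv1 is known from the yeast Saccharomyces cerevisiae as a WD-repeat adaptor on the mitochondrial outer membrane. It binds the anchor protein Fis1 and recruits the dynamin Dnm1, whose ring then constricts the organelle. Division of mitochondria balances their fusion by the GTPases Fzo1 and Mgm1, and small mitochondria can be taken up by autophagy. In this fungus the study asks how the adaptor bears on mitochondrial shape, mitophagy, spores, traps and energy metabolism.

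Transcripts of the targeted gene were present in the libraries labelled Aomdv1 mutant. MDV1 (AOL_s00097g206) stood at 127, 118 and 82.5 FPKM in the 3 libraries labelled Aomdv1 mutant, against 133, 116 and 114 FPKM in the 3 WT libraries. The groups overlapped, and the log2 fold change (mutant minus WT, on the log2(FPKM + 1) scale) was -0.17 with a 95% interval of -0.94 to 0.60 (limma adjusted p = 0.866). A value per gene cannot show whether part of the gene is missing. The libraries are therefore called mutant-labelled below, and every direction is that of the label.

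The 6 libraries did not stand evenly apart. Across the loci kept, log2 values correlated at 0.96 between mutant-labelled libraries 1 and 2, but at 0.857 to 0.875 between library 3 and these. Mutant-labelled library 1 was closer to the 3 libraries labelled Aovps1 mutant, at 0.973 to 0.975, than to its own group. WT libraries 1 and 2 correlated at 0.98, and WT library 3 with them at 0.889 to 0.9. Libraries of each group also leaned with the length of the locus. In the 2491 loci of shortest genomic span (150 to 905 bp), mutant-labelled library 3 lay a median of 0.35 log2 units above the mean of libraries 1 and 2, and in the 2491 longest (2137 bp or more) it lay at -0.61. WT library 3 lay 0.48 above its partners in the shortest and -0.09 from them in the longest set. Mutant-labelled library 2 leaned the other way, at -0.28 in the shortest and 0.36 in the longest set. Each value is relative to the other libraries of the group, so it cannot assign a lean to a single library. The part of this lean in the results was not tested. The estimated depth was 15900000 to 17300000 fragments per mutant-labelled library and 17200000 to 19050000 per WT library.

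**Figure D1:**
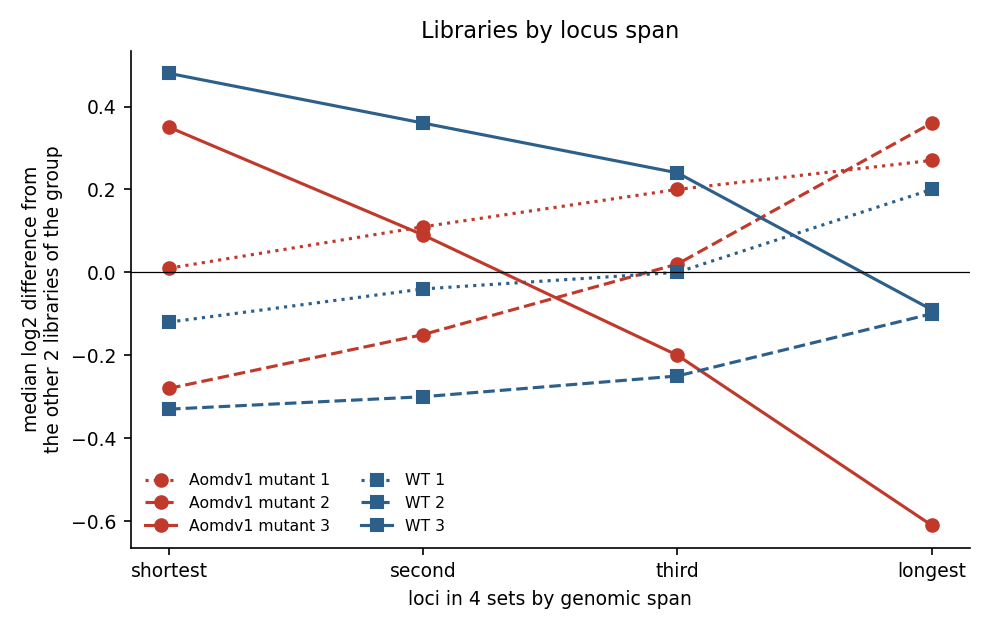
Median log2 difference of each library from the mean of the other 2 libraries of its group, for the loci kept, split into 4 sets of near-equal size by genomic span (horizontal axis, shortest to longest). Red circles are the 3 mutant-labelled libraries and blue squares the 3 WT libraries. Mutant-labelled library 3 runs from 0.35 in the shortest set to -0.61 in the longest.

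Of the 9963 loci, 528 passed the threshold (5.3%; limma, adjusted p under 0.05 over all 9963). Of these, 300 were higher (3.01%) and 228 lower (2.29%) in the mutant-labelled libraries. In all 528 the groups did not overlap, which held for 22.2% of all loci kept. The smallest change called was 1.25 log2 units, and the median size was 2.69 for loci that rose and 2.77 for loci that fell. At an unadjusted p under 0.05 there were 1656 loci (16.6%), and a fit with all 9 libraries of the series called 1024 (10.3%). Leaving out 1 library moved the counts: 198 rose and 137 fell without mutant-labelled library 1, 178 and 131 without library 2, 143 and 141 without WT library 1, and 120 and 102 without WT library 2. In all 6 such fits 119 of the 300 risen and 89 of the 228 fallen loci were called.

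Loci that rose took up a visible part of the transcriptome. Together the 300 loci held 9.08, 10.3 and 12.9% of the summed FPKM in the 3 mutant-labelled libraries, against 1.08, 0.739 and 1.09% in the WT libraries. The 228 loci that fell held 0.582, 0.702 and 0.636% in the mutant-labelled libraries, against 4.68, 6.36 and 9.47% in WT. These loci were chosen for differing between the same libraries, so the shares describe the size of the change and are no test of it. Among the 2491 loci with the highest mean FPKM (60.9 or more), 128 rose and 56 fell, while among the 2492 with the lowest 57 rose and 73 fell. A function was annotated for 193 of the 300 risen loci and 123 of the 228 fallen loci. The share called was 4.5% among annotated loci, 7.19% among loci without an annotated function and 2.71% among newly called loci without a locus tag.

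**Figure D2:**
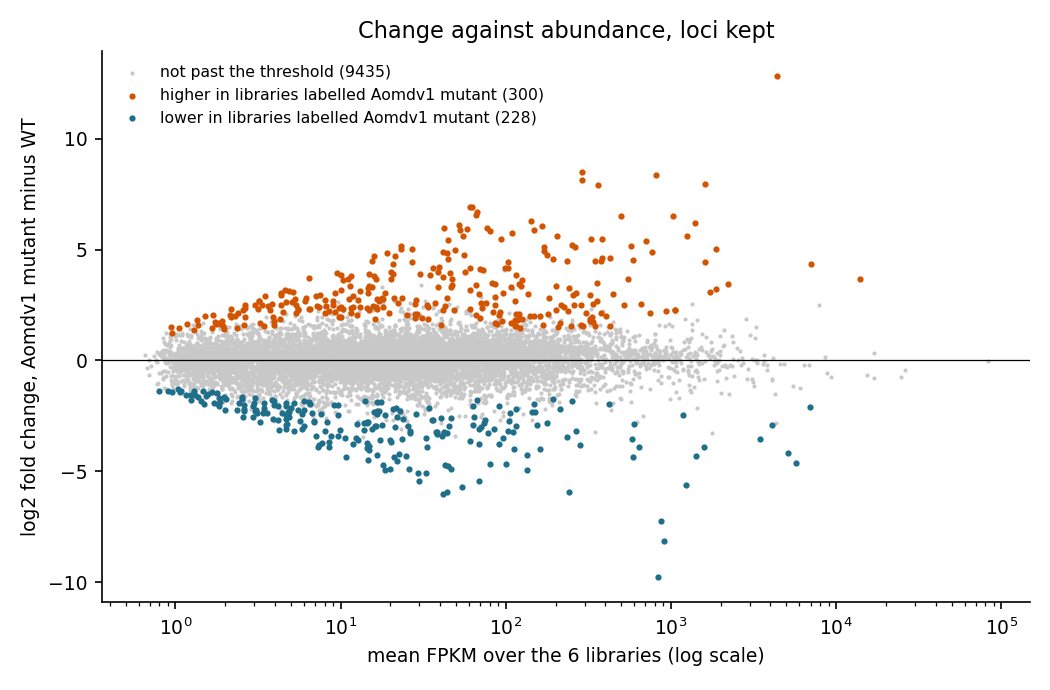
Log2 fold change (mutant-labelled minus WT, vertical axis) against the mean FPKM over the 6 libraries (horizontal axis, log scale), 1 point per locus kept. Orange points are the 300 loci that rose, blue points the 228 that fell and grey points the others. The top point at a log2 fold change of 12.84 is AOL_s00076g487.

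In absolute amount, the largest gain with separate groups was that of AOL_s00078g205, a locus with no known domain. It had 11349, 9505 and 57005 FPKM in the mutant-labelled libraries, against 2657, 529 and 2205 FPKM in WT. Mutant-labelled library 3 was far above the other two, and the call (log2 fold change 3.65, SE 0.81, limma adjusted p = 0.0377) held in 1 of the 6 fits with a library left out. The gain of AOL_s00054g210, a protein with a DUF3759 domain of unknown function, was steadier. Its level was 10923, 11065 and 17982 FPKM in the mutant-labelled libraries, against 970.4, 464 and 584 FPKM in WT (4.34, SE 0.41, limma adjusted p = 0.000583). The third was AOL_s00076g487, an RTA1-like protein; proteins of this family sit in the membrane, and yeast members are known for lipid transport and resistance to toxic compounds. It had 7787, 8024 and 10392 FPKM in the mutant-labelled libraries, against 0.06, 0.12 and 0.38 FPKM in WT.

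Other large gains were those of a protein annotated as a serine protease inhibitor, AOL_s00076g558, and of a MAPEG-family protein, AOL_s00188g118; MAPEG proteins are membrane enzymes of eicosanoid and glutathione metabolism in animals. AOL_s00076g558 had 2549, 1911 and 7876 FPKM in the mutant-labelled libraries, against 284, 201 and 494 FPKM in WT. AOL_s00188g118 had 3843, 3771 and 2452 FPKM in the mutant-labelled libraries, against 237, 269 and 696 FPKM in WT. In both genes every mutant-labelled library was well above the highest WT library. The phospholipase A2 gene AOL_s00081g9, for a secreted enzyme that cleaves phospholipids, reached 3725, 4895 and 962 FPKM in the mutant-labelled libraries, against 6.03, 9.62 and 14.9 FPKM in WT. The last 4 of the 10 largest gains, AOL_s00080g257, AOL_s00083g128, AOL_s00043g269 and AOL_s00076g476, carry no known domain. Of these AOL_s00080g257 was the most even, at 3965, 3695 and 3256 FPKM in the mutant-labelled libraries, against 107, 105 and 114 FPKM in WT (5.04, SE 0.30, limma adjusted p = 6.58e-05).

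The largest loss in amount was that of AOL_s00169g257, which has no known domain, with 719, 389 and 142 FPKM in the mutant-labelled libraries, against 3881, 6661 and 22700.5 FPKM in WT. WT library 3 stood well above the other WT libraries in this locus. Next came AOL_s00080g288, a lectin of the fungal fruit body type, which binds sugars on other cells. It had 508, 475 and 458 FPKM in the mutant-labelled libraries, against 4761, 8829 and 15724 FPKM in WT (-4.18, SE 0.46, limma adjusted p = 0.00125). The 3 mutant-labelled libraries were nearly level, and all lay far below the lowest WT library. AOL_s00188g280 and AOL_s00169g241, without a known domain, fell by 2.90 and 3.55 on the log2 scale. A newly called locus on NW_011645635.1 (2002544 to 2004584) fell by 2.11 (limma adjusted p = 0.0338), a call kept in 1 of the 6 fits with a library left out.

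A gene with a phosphatidylserine decarboxylase domain, AOL_s00097g76, also ranked among the losses; in yeast the mitochondrial enzyme of this family makes phosphatidylethanolamine, but the closest Swiss-Prot hit of this gene is a decarboxylase of psilocybin synthesis. Its level was 240.3, 93.8 and 150.4 FPKM in the mutant-labelled libraries, against 1143, 1555 and 6299.8 FPKM in WT (-3.89, SE 0.65, limma adjusted p = 0.0105). WT library 3 was again the highest. Of the 10 largest losses, 4 lay on scaffold NW_011645726.1, where 11 of 186 loci rose and 12 fell (12.4% called, against 5.3% of all loci). On that scaffold the phosphate permease gene pho-4 (AOL_s00169g251), AOL_s00169g256 and AOL_s00169g257 lay within 19261 bp (851017 to 870277). The permease, which takes up phosphate when it is scarce, had 25.9, 8.57 and 2.86 FPKM in the mutant-labelled libraries, against 808, 1458 and 2898 FPKM in WT.

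**Figure D3:**
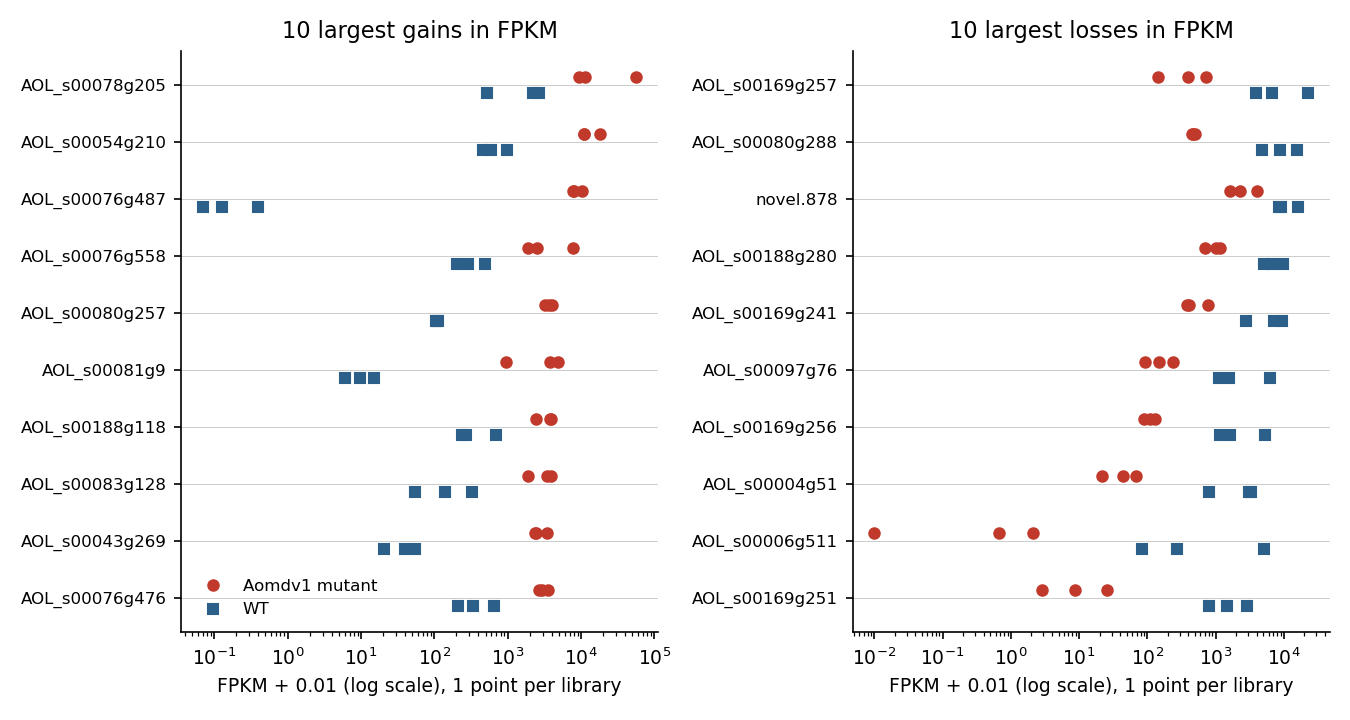
FPKM in each library (horizontal axis, log scale, 0.01 added so that a value of 0 can be drawn) of the 10 loci with the largest gains (left) and the 10 with the largest losses (right) in mean FPKM. Red circles are the 3 mutant-labelled libraries and blue squares the 3 WT libraries. In all 20 loci the circles and squares do not overlap, as the rule of choice required.

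Ranked by fold change, 6 of the first 10 risers and 5 of the first 10 fallers had no annotated function. AOL_s00079g331 had 389, 469.9 and 877 FPKM in the mutant-labelled libraries, against 0, 0.52 and 1.23 FPKM in WT. AOL_s00117g72 had 620.1, 539 and 998 FPKM in the mutant-labelled libraries, against 1.01, 1.51 and 3.62 FPKM in WT. Both were thus abundant in each mutant-labelled library and near 0 in WT. A further locus of this kind, AOL_s00043g815, had 122, 126 and 149 FPKM in the mutant-labelled libraries, against 0.26, 0.56 and 0.44 FPKM in WT. AOL_s00006g506 stood at 117, 91 and 167 FPKM and AOL_s00075g45 at 122, 147 and 93.9 FPKM in the mutant-labelled libraries. Both are listed at 0 in all 3 WT libraries, so no fold is given. On the falling side AOL_s00215g466 was at 0.86, 0.81 and 1.66 FPKM in the mutant-labelled libraries, against 97.8, 107 and 119.9 FPKM in WT (-5.71, SE 0.40, limma adjusted p = 0.000131). AOL_s00004g51 was at 21.3, 43.6 and 68.6 FPKM in the mutant-labelled libraries, against 811, 3083 and 3349 FPKM in WT, and AOL_s00169g95 and AOL_s00043g167 fell by 5.96 and 5.45 on the log2 scale. A gene closest to elongation factor 2 of Neurospora, AOL_s00210g187, had 0.07, 0.27 and 0.22 FPKM in the mutant-labelled libraries, against 56.1, 62.8 and 132 FPKM in WT (-6.05, SE 0.46, limma adjusted p = 0.000212).

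No gene of mitochondrial division and fusion passed the threshold with the 6 libraries. Of 15 tested genes on this list 0 rose and 0 fell, with a median log2 fold change of -0.17, against 0.08 over all loci kept. Under other settings 1 was called with all 9 libraries of the series in the fit, with median-ratio scaling, without mutant-labelled library 3 and without WT library 3, and 2 with both of these left out. MTP18 (AOL_s00079g30) is the gene for an inner membrane protein known in human cells to be needed for mitochondrial fission. It had 93.3, 65 and 55.8 FPKM in the mutant-labelled libraries, against 20.8, 12.7 and 28.8 FPKM in WT (1.77, limma adjusted p = 0.0518). The groups did not overlap. MTP18 passed in each of those settings and with array weights, which give less weight to libraries of larger spread, at limma adjusted p-values of 0.000274 to 0.0458. VPS1 (AOL_s00007g394), the dynamin-related GTPase studied beside Mdv1, had 41.2, 55 and 35.7 FPKM in the mutant-labelled libraries, against 105, 72.7 and 83.1 FPKM in WT. The groups again did not overlap, but VPS1 did not pass the threshold (-0.97, limma adjusted p = 0.204). Among the other settings it passed with array weights alone (limma adjusted p = 0.0223). FIS1 (AOL_s00109g118) had 119, 179.5 and 113 FPKM in the mutant-labelled libraries, against 127, 118 and 64.8 FPKM in WT. DNM1 (AOL_s00078g290) had 66.1, 44.3 and 44 FPKM in the mutant-labelled libraries, against 60, 54.2 and 52.5 FPKM in WT. The groups overlapped in both, as they did in FZO1 (AOL_s00054g413) and MGM1 (AOL_s00215g191), whose log2 fold changes were -0.74 and 0.13.

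Most members of the wider mitochondrial lists had positive log2 fold changes, with few calls. Most loci kept were positive too, with a median of 0.08 over all loci and 0.17 in the set of shortest span. The share of positive loci was not counted over all loci, so the counts of positive members have no background beside them. Among 46 mitochondrial carriers, which move metabolites across the inner membrane, 0 passed the threshold and 34 had a positive log2 fold change (median 0.41). For the mitochondrial ribosome and import machinery 0 of 79 passed, and 72 were positive (median 0.42). Of 96 oxidative phosphorylation genes 1 rose and 1 fell, with 88 positive (median 0.39). Neither called member is a subunit of the respiratory chain by its protein hits. The riser, AOL_s00054g672, is a zinc-binding dehydrogenase, with 346, 266 and 264 FPKM in the mutant-labelled libraries, against 5.25, 3.32 and 3.59 FPKM in WT. The faller, AOL_s00078g49, carries leucine-rich repeats of an F-box protein. The medians of the 3 lists were 0.25, 0.27 and 0.26 with median-ratio scaling, in the order given, and 0.18, 0.17 and 0.2 with quantile scaling, where the median of all loci was -0.05 and 0.01. Without mutant-labelled library 3 they were 0.33, 0.32 and 0.25, where the median of all loci was 0.18.

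Proteasome genes held calls in the upward direction alone. Of 42 proteasome genes 9 rose and 0 fell (21.4%, against 5.3% of all loci), and 40 of 42 were positive (median 0.88). Of the 14 tested genes with the proteasome subunit domain, which form the catalytic barrel, 6 rose. The alpha-2 subunit gene AOL_s00081g362 had 466, 443 and 588 FPKM in the mutant-labelled libraries, against 173, 121 and 147 FPKM in WT (1.76, SE 0.33, limma adjusted p = 0.0165). The alpha-5 subunit gene AOL_s00079g21 had 335, 336 and 437 FPKM in the mutant-labelled libraries, against 109, 109 and 160.2 FPKM in WT (1.56, limma adjusted p = 0.0338). The groups did not overlap in either gene, as in all 528 called loci. The other risers were the genes for the alpha-1, alpha-7, beta-5 and beta-6 subunits, the regulatory subunits 6A and p27, and the maturation factor UMP1, with log2 fold changes of 1.52 to 1.72. The proteasome calls were near the threshold: 3 rose with either scaling, 4 without mutant-labelled library 3 and 18 with all 9 libraries in the fit. The ubiquitin ligase pathway, which marks proteins for this machine, had 0 calls among 75 genes (median 0.11).

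Among autophagy genes 2 of 102 rose and 0 fell (1.96%, below the 5.3% of all loci). Their median log2 fold change was 0.33, against 0.08 over all loci. Without mutant-labelled library 3 it was 0.53, against 0.18. With all 9 libraries in the fit 8 rose and 1 fell, where 10.3% of all loci were called. The 2 risers with 6 libraries were the conjugating enzyme gene ATG3 (AOL_s00078g458) and a gene for a membrane protein with a DUF92 domain (AOL_s00215g507). ATG3, whose product attaches the Atg8 tag to lipid, had 101, 111 and 116 FPKM in the mutant-labelled libraries, against 26.7, 22.4 and 38.9 FPKM in WT (1.90, limma adjusted p = 0.0189). The call on the mitophagy list, 1 of 49, was a cytochrome P450 of the arthrosporol cluster (AOL_s00215g280) that the deposited KEGG column places there. Of 59 genes of the vacuolar proton pump and vacuolar sorting 1 rose (median 0.54), and of 107 endocytosis genes 3 rose. The riser in vacuolar sorting was IST1 (AOL_s00117g14), a regulator of the ESCRT machinery that sorts membrane proteins into the vacuole, at 125, 153 and 123 FPKM in the mutant-labelled libraries, against 35.4, 33.5 and 63.5 FPKM in WT. Of the endocytosis risers the strongest was AOL_s00097g286, for an ADP-ribosylation factor, a small GTPase of vesicle budding, with 37.7, 69.1 and 14.3 FPKM in the mutant-labelled libraries, against 1.21, 0.93 and 2.02 FPKM in WT. Of 102 chaperone genes 2 rose and 1 fell. The small heat shock protein gene AOL_s00097g499 had 1614, 1904 and 2574 FPKM in the mutant-labelled libraries, against 28.6, 19.4 and 16.4 FPKM in WT, and HSP90 (AOL_s00083g179) had 561, 432 and 566 FPKM in the mutant-labelled libraries, against 168, 208 and 63.6 FPKM in WT. The HSP90 call was just inside the threshold (limma adjusted p = 0.0491) and held in 0 of the 6 fits with a library left out. The faller, AOL_s00170g37, has an Hsp70 domain and stood at 0.91, 1.06 and 0.45 FPKM in the mutant-labelled libraries, against 52, 40.4 and 102 FPKM in WT.

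Calls among oxidising enzymes were mostly upward. Of 63 FAD-binding oxidoreductases, flavin enzymes that oxidise small molecules, 9 rose and 1 fell (15.9% called, against 5.3% of all loci). Of the 11 with the aromatic-ring monooxygenase type of FAD domain (Pfam PF01494), 6 rose and 0 fell. The strongest, AOL_s00215g259, had 1300.0, 1794 and 1796 FPKM in the mutant-labelled libraries, against 4.24, 3.87 and 3.45 FPKM in WT (8.38, SE 0.34, limma adjusted p = 1.13e-05). A FAD-linked oxidoreductase of another family, AOL_s00076g534, had 528, 950.5 and 439 FPKM in the mutant-labelled libraries, against 12.5, 12 and 13.6 FPKM in WT. All 3 WT libraries were level in both genes, and every mutant-labelled library was far above them. Of 48 short-chain dehydrogenases 5 rose and 1 fell (12.5%; 3 and 2 with either scaling). Among 31 genes of the cytochrome P450 family there were 4 risers and 0 fallers (1 faller with median-ratio scaling). Of those 4 P450 genes, 3 belong to the arthrosporol region, AOL_s00215g278, AOL_s00215g280 and AOL_s00215g282. The other one, AOL_s00210g299, had 131, 214 and 109 FPKM in the mutant-labelled libraries, against 17.2, 23 and 18.6 FPKM in WT (2.84, limma adjusted p = 0.00425).

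Of 84 antioxidant genes 6 rose and 0 fell (7.14% called, near the 5.3% of all loci). Their median log2 fold change was 0.50, and 0.31 without mutant-labelled library 3. The risers include a pair of catalases, the enzymes that break down hydrogen peroxide. The first (AOL_s00076g488), closest to catalase B of Aspergillus and lying next to the RTA1-like gene AOL_s00076g487, had 36, 20.8 and 56.3 FPKM in the mutant-labelled libraries, against 0.11, 0.23 and 0.42 FPKM in WT. The second, AOL_s00188g243, closest to a peroxisomal catalase, was low, with 2.87, 4.31 and 2.49 FPKM in the mutant-labelled libraries, against 0.12, 0.09 and 0.56 FPKM in WT (1.74, limma adjusted p = 0.0206). A thioredoxin reductase gene whose nearest hit serves gliotoxin synthesis, AOL_s00054g257, had 122, 204 and 189 FPKM in the mutant-labelled libraries, against 19.1, 26.4 and 14.4 FPKM in WT. A gene for a glutathione-dependent formaldehyde-activating enzyme, AOL_s00080g196, reached 300.2, 548 and 141 FPKM in the mutant-labelled libraries, against 6.82, 4.56 and 17.3 FPKM in WT. In none of the 4 did the groups overlap, as in all 528 called loci.

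Central carbon metabolism held calls of both directions. Of 69 genes on the maps for the TCA and glyoxylate cycles 5 rose and 2 fell (10.1%, against 5.3% of all loci). But the risers were the pair of catalases, the zinc-binding dehydrogenase AOL_s00054g672, a fluG gene with a glutamine synthetase domain (AOL_s00043g361) and AOL_s00006g210. None of these is an enzyme of either cycle proper by its protein hits. The fallers were phosphoenolpyruvate carboxykinase (AOL_s00004g362), the entry step of gluconeogenesis, and an aldolase gene (AOL_s00078g69). The carboxykinase gene had 189.7, 332 and 647 FPKM in the mutant-labelled libraries, against 2195, 2275 and 1441 FPKM in WT (-2.48, limma adjusted p = 0.0195). An alcohol dehydrogenase gene, AOL_s00188g321, had 18.5, 13 and 33.2 FPKM in the mutant-labelled libraries, against 328, 248 and 52.8 FPKM in WT (-2.96, limma adjusted p = 0.0448). WT library 3 was the lowest WT library for both, and both calls held in 2 of the 6 fits with a library left out. Of 69 genes on the glycolysis and gluconeogenesis map, which holds the carboxykinase and the alcohol dehydrogenase, 1 rose and 3 fell (5.8%). The riser was an aldehyde dehydrogenase gene, AOL_s00004g572, with 84.3, 143 and 37.8 FPKM in the mutant-labelled libraries, against 5.07, 7.65 and 6.83 FPKM in WT.

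Lists of nutrient uptake held few calls, most of them downward. Of 49 metal transport genes 0 rose and 3 fell (6.12%, near the 5.3% of all loci). These were the copper transporter CTR3 (AOL_s00078g476), a high-affinity zinc transporter (AOL_s00173g355) and a ferric reductase (AOL_s00215g792), which prepares iron or copper for uptake. The zinc transporter had 13.5, 22.1 and 16.8 FPKM in the mutant-labelled libraries, against 124, 171 and 96.1 FPKM in WT (-2.82, SE 0.39, limma adjusted p = 0.00451). The ferric reductase had 27.8, 11 and 4.55 FPKM in the mutant-labelled libraries, against 157, 171 and 296 FPKM in WT (-4.01, SE 0.60, limma adjusted p = 0.0063). Of 31 sugar transporters 0 rose and 3 fell (9.68%), 1 without mutant-labelled library 3. The clearest, AOL_s00076g624, is closest to GIT3, a carrier of glycerophosphodiesters in the yeast Candida albicans, and had 2.71, 2.13 and 3.22 FPKM in the mutant-labelled libraries, against 27.4, 46.1 and 59.6 FPKM in WT (-3.56, limma adjusted p = 0.00255). Of 43 amino acid and nitrogen transporters 0 rose and 3 fell (6.98%), all of them permeases. The direction did not hold on this list without mutant-labelled library 3, where 2 rose and 2 fell. A general amino acid permease, AOL_s00173g372, had 27.1, 41.6 and 28.3 FPKM in the mutant-labelled libraries, against 106, 158 and 275 FPKM in WT. On the phosphate list 1 of 35 rose and 4 fell (14.3%). The riser, AOL_s00081g255, is a lipid phosphatase rather than an uptake gene (0 rose with either scaling). Beside the permease the fallers were a phytase (AOL_s00169g232), which frees phosphate from plant phytate, an alkaline phosphatase (AOL_s00215g838) and a phytase-like esterase (AOL_s00170g4). The phytase had 0.2, 0.07 and 0 FPKM in the mutant-labelled libraries, against 11.2, 42.5 and 65.3 FPKM in WT.

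Surface and wall genes carried calls in both directions, with more downward. Of 51 hydrophobins and surface proteins 3 rose and 8 fell (21.6%, against 5.3% of all loci, and 3 and 9 with quantile scaling). The hydrophobin AOL_s00006g570, a protein that makes the surface of spores and aerial hyphae water-repellent, had 0.13, 1.92 and 1.03 FPKM in the mutant-labelled libraries, against 1725, 1909 and 1397 FPKM in WT. In these bulk samples, fewer cells of a type and less RNA per cell cannot be told apart. Also among the fallers were AOL_s00007g5 and AOL_s00083g117, with the GLEYA domain of yeast adhesins. AOL_s00083g117 had 3.61, 5.94 and 3.43 FPKM in the mutant-labelled libraries, against 67.3, 77 and 447 FPKM in WT. Among the called members with lectin hits, the mannose-binding lectin AOL_s00006g511, the fruit body lectin AOL_s00080g288 and the fucose-specific lectins AOL_s00188g331 and AOL_s00076g540 fell, while the ricin-type lectins AOL_s00080g99 and AOL_s00173g393 rose. AOL_s00173g393 had 1403, 1582 and 2292 FPKM in the mutant-labelled libraries, against 321, 487 and 281 FPKM in WT (2.28, SE 0.37, limma adjusted p = 0.00887). AOL_s00006g511 had 2.1, 0.66 and 0 FPKM in the mutant-labelled libraries, against 82.8, 272 and 5066 FPKM in WT, so WT library 3 held most of its signal. AOL_s00188g331 was listed at 0 in all 3 mutant-labelled libraries, against 9.51, 4.51 and 11.4 FPKM in WT.

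Of 63 chitin and cell wall genes 2 rose and 6 fell (12.7%, against 5.3% of all loci), and 3 and 9 without mutant-labelled library 3. Of the 6 fallers 4 are LysM-domain genes by their closest protein hits. The adjacent genes for a LysM protein, which binds chitin, and for a family 18 chitinase were low together. The LysM gene AOL_s00006g493 had 2.08, 2.67 and 1.66 FPKM in the mutant-labelled libraries, against 100.5, 102 and 57.9 FPKM in WT, and the chitinase gene AOL_s00006g492 had 1.13, 1.99 and 0.71 FPKM in the mutant-labelled libraries, against 53.4, 57.3 and 20.9 FPKM in WT. WT library 3 was the lowest WT library for both. The glucanosyltransferase gene gas2 (AOL_s00043g350), which remodels wall glucan, rose (2.09, limma adjusted p = 0.0443), with 321, 362 and 188 FPKM in the mutant-labelled libraries, against 65.1, 36.6 and 115 FPKM in WT. Among 114 glycosyl hydrolases 6 rose and 4 fell (8.77%; 5 and 8 with quantile scaling, 4 and 6 without mutant-labelled library 3). The largest changes were those of cellulose-degrading enzymes. The family 5 endoglucanase gene AOL_s00110g290 had 349, 403 and 224 FPKM in the mutant-labelled libraries, against 2.98, 3.44 and 4.88 FPKM in WT, and the family 45 endoglucanase gene AOL_s00210g380 had 0.62, 1.02 and 0.55 FPKM in the mutant-labelled libraries, against 34, 34.7 and 28 FPKM in WT. Both were apart between the groups, in opposite directions. The fallers also included a pair of family 61 polysaccharide monooxygenases, of which AOL_s00210g85 had 59.6, 54.9 and 65.7 FPKM in the mutant-labelled libraries, against 282, 236 and 194 FPKM in WT (-1.95, limma adjusted p = 0.0109).

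Genes of conidiation, including the hydrophobins, were kept as a sign of spores and their stalks. Of 15 tested, 1 rose and 1 fell (13.3%, against 5.3% of all loci, and 0 and 1 without mutant-labelled library 3). The riser was fluG (AOL_s00043g361), which in Aspergillus starts conidiation, and the faller was the hydrophobin. The summed FPKM of the list was 341, 291 and 136 in the mutant-labelled libraries, against 1983, 2137 and 1774 in WT, most of the WT sum being that hydrophobin. The conidiophore regulators stood low in both groups. The abaA gene (AOL_s00080g63) had means of 5.12 FPKM in the mutant-labelled libraries and 3.74 FPKM in WT, and the wetA gene (AOL_s00173g221) had 1.38 and 1.57 FPKM in the same order. These regulators and the velvet gene were named as markers of spore formation, whatever their values. Neither was called (limma adjusted p = 0.726 and 0.843), nor was the velvet gene AOL_s00054g811 (-1.27, limma adjusted p = 0.43).

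The peptidase list held inhibitors and proteasome subunits beside true peptidases, and of its 159 genes 11 were higher and 8 lower (11.9%, against 5.3% of all loci). Median-ratio scaling gave 7 and 8, quantile scaling 7 and 7, and leaving out mutant-labelled or WT library 3 gave 9 and 5 or 11 and 4. Among 18 genes of the subtilase family, which includes the enzymes that digest nematode cuticle, 2 rose and 3 fell. The cuticle-degrading protease gene AOL_s00075g8 had 1.28, 0.58 and 1.65 FPKM in the mutant-labelled libraries, against 13.9, 28.6 and 13.8 FPKM in WT. A second cuticle-degrading protease gene, AOL_s00076g4, had 4.08, 16.4 and 3.18 FPKM in the mutant-labelled libraries, against 40.2, 90.5 and 261 FPKM in WT (-3.79, limma adjusted p = 0.0247). Among genes of the protease inhibitor family I66, 2 of 8 rose and 1 fell. The faller, AOL_s00054g904, had 6.51, 19.9 and 16 FPKM in the mutant-labelled libraries, against 62.4, 340.0 and 517 FPKM in WT (-4.01, limma adjusted p = 0.0192). AOL_s00076g4, AOL_s00054g904 and the subfamily counts were chosen after their values were seen. So were, above, AOL_s00170g4, AOL_s00007g5, AOL_s00083g117 and AOL_s00076g540, and the proteasome risers named beyond the 3 of smallest adjusted p.

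**Figure D4:**
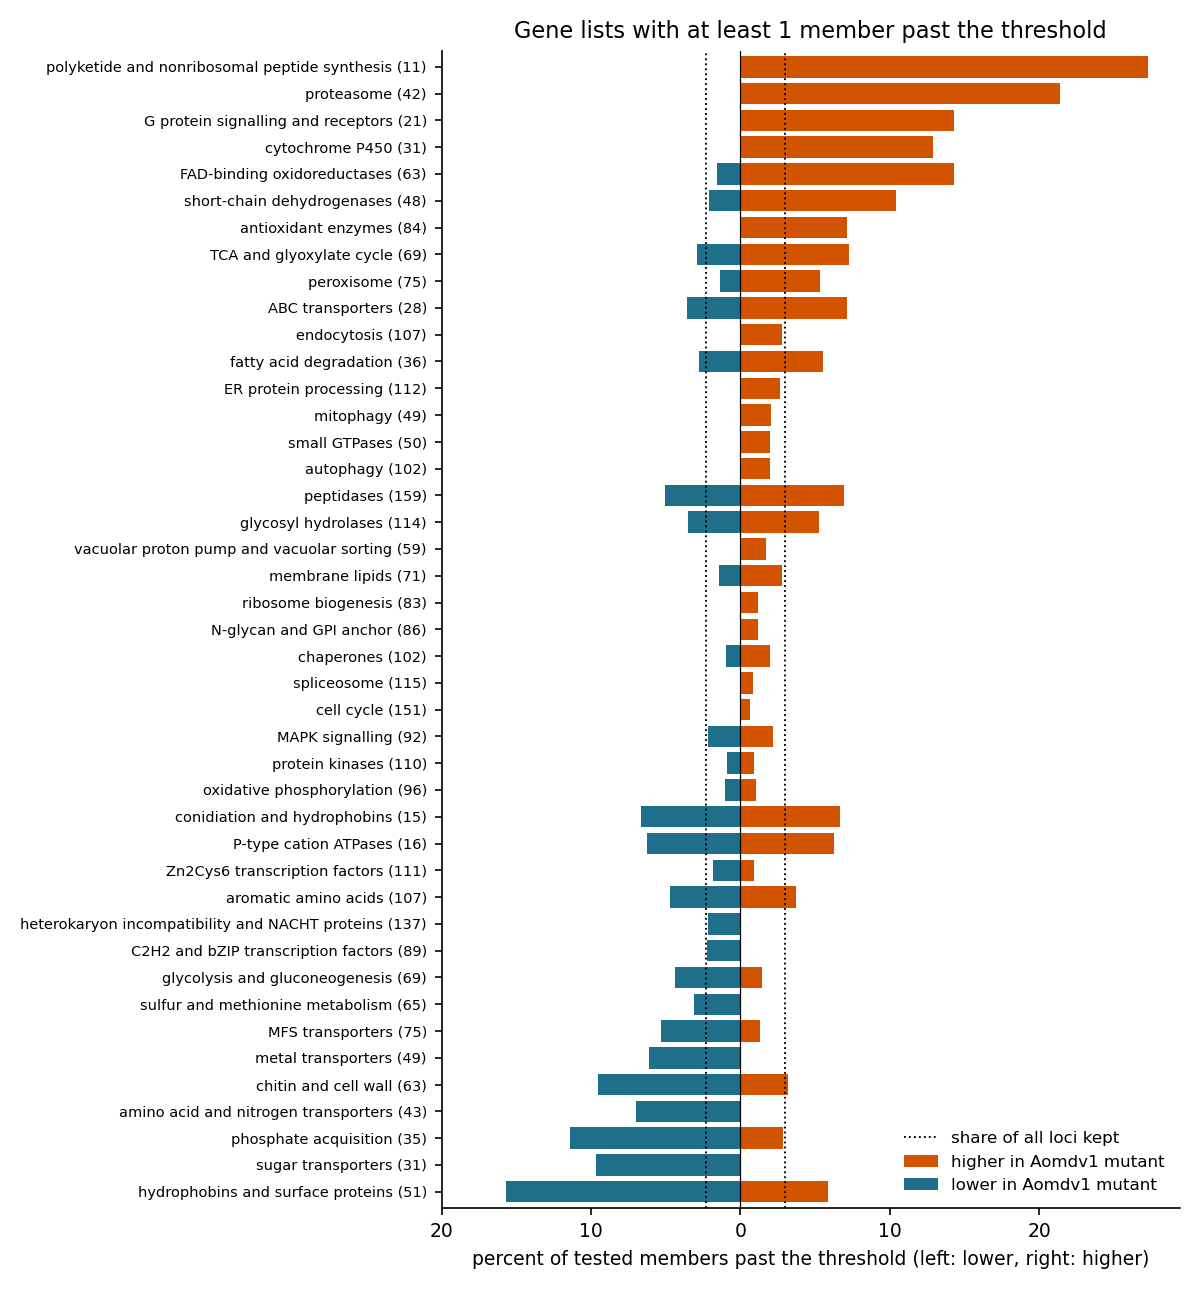
Percent of the tested members of each gene list past the threshold (number tested in brackets). Orange bars to the right give members higher and blue bars to the left members lower in the mutant-labelled libraries. The dotted lines mark the share of all loci kept, 3.01% higher and 2.29% lower. Proteasome genes reach 21.4% on the right, and hydrophobins and surface proteins extend furthest to the left, with 8 of 51.

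Few transcription factors and protein kinases were called with all 6 libraries, against 5.3% of all loci. The share called was lower in long loci, at 2.57% in the set of longest span (2137 bp or more). The median spans of the Zn2Cys6 and kinase lists, 2430 and 2341 bp, fall in that set. That of the C2H2 and bZIP list, 1456 bp, falls in the third set (1413 to 2136 bp), where 4.91% were called. Whether span bears on the counts of these lists was not tested. Of 111 Zn2Cys6 transcription factors, the fungal family of zinc-cluster regulators, 1 rose and 2 fell (2.7%), and of 89 C2H2 and bZIP factors 0 rose and 2 fell (2.25%). Without mutant-labelled library 3, 5 rose and 2 fell among the Zn2Cys6 factors and 3 rose and 2 fell among the C2H2 and bZIP factors. The Zn2Cys6 riser, AOL_s00110g46, had 42.2, 41.6 and 37.2 FPKM in the mutant-labelled libraries, against 0.58, 0.88 and 1.73 FPKM in WT (4.36, SE 0.41, limma adjusted p = 0.000582). The faller AOL_s00007g302 had 0.75, 1.51 and 0.16 FPKM in the mutant-labelled libraries, against 9.9, 14.2 and 21.7 FPKM in WT, and the C2H2 gene AOL_s00097g514 had 0.84, 0.24 and 0.59 FPKM in the mutant-labelled libraries, against 10.4, 8.54 and 7.43 FPKM in WT. Of 110 protein kinase genes 1 rose and 1 fell (1.82%), and of 92 genes on the MAPK map 2 rose, both of them catalases, and 2 fell, both of them aspartyl proteases. The 3 risers among 21 genes listed for G protein signalling and receptors (14.3%) were RTA1-like genes. Of the 5 RTA1-like genes tested the others that rose beside AOL_s00076g487 were AOL_s00054g302 and AOL_s00173g389. AOL_s00054g302 had 562, 642 and 536 FPKM in the mutant-labelled libraries, against 1.11, 0.82 and 1.34 FPKM in WT (8.12, limma adjusted p = 1.34e-05). AOL_s00173g389, closest to a sphingoid base transporter of yeast, had 318, 453 and 334 FPKM in the mutant-labelled libraries, against 24.9, 30.2 and 56 FPKM in WT (3.35, limma adjusted p = 0.00222).

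The median change of these regulatory lists depended on mutant-labelled library 3. With it the median log2 fold change was -0.03 for protein kinases (median span 2341 bp), and without it 0.39. For Zn2Cys6 factors (2430 bp) the medians were -0.02 with and 0.37 without it, for the MAPK map (2025 bp) -0.17 and 0.35, and for cell cycle genes (2189 bp) -0.15 and 0.21. The C2H2 and bZIP factors, of shorter median span (1456 bp), had -0.35 and 0.22. Lists of still longer loci moved by unlike amounts. P-type cation ATPases (3709 bp) had -0.24 and 0.25, heterokaryon incompatibility and NACHT proteins (3460 bp) -0.06 and 0.09, and ABC transporters (3342 bp) 0.01 and 0.17. Whether locus length bears on these shifts was not tested. Lists of short loci moved in either direction. The mitochondrial ribosome and import list (716 bp) had 0.42 with and 0.32 without that library, but the cytosolic ribosome list (839 bp) had 0.12 and 0.25, and small GTPases (1090 bp) had 0.26 and 0.33. Over all loci the median was 0.08 with and 0.18 without it, and 18 of the 56 lists had a median of the other sign. Without that library 333 loci rose and 212 fell.

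Housekeeping lists held almost no calls. Of 80 cytosolic ribosomal protein genes 0 passed the threshold (median 0.12), of 83 ribosome biogenesis genes 1 rose, of 115 spliceosome genes 1 rose, and of 53 genes for aminoacyl-tRNA synthesis 0 passed. Among 52 DNA replication genes 0 passed, as among 101 genes of the cytoskeleton and its motors and 28 RNA polymerase genes. The spliceosome call was a gene closest to the protein kinase SNF1, AOL_s00173g365, which the KEGG column also places on the maps for endocytosis and protein processing in the endoplasmic reticulum. RIX7 (AOL_s00054g152), an ATPase that frees pre-60S particles in yeast, was the ribosome biogenesis riser, with 219, 216 and 144 FPKM in the mutant-labelled libraries, against 40.3, 29.6 and 67.5 FPKM in WT (2.11, limma adjusted p = 0.0209). These counts are below the 5.3% called among all loci, but log2 changes under 1.25 were not called for any locus.

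Some called loci lay next to each other. Of the 528, 143 (27.1%) stood in 63 runs of at least 2 neighbouring loci called in the same direction, 37 runs of risen and 26 of fallen loci. Of 9924 pairs of neighbouring loci kept, 80 were called in the same direction (0.806%) and 8 in opposite directions. The share was 1.01% of divergent pairs, 0.873% of pairs on the same strand and 0.586% of convergent pairs. No pair called in the same direction overlapped in its coordinates (0 of 80). The median gap between the 2 loci was 1174 bp in such pairs and 1146 bp in all pairs.

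The longest run was 5 fallen loci on scaffold NW_011645564.1 (157692 to 166978) around the high-affinity methionine permease gene AOL_s00007g56. That gene had 0.47, 1.21 and 0.52 FPKM in the mutant-labelled libraries, against 76.1, 46 and 52.4 FPKM in WT. Its neighbour AOL_s00007g55, with no known domain, fell by 5.92 on the log2 scale, and a newly called locus on the other strand (160597 to 163984) fell by 4.94. At the far end, AOL_s00007g57 fell by 2.74 and the kinase-domain gene AOL_s00007g58 fell by 2.21. On the log2(FPKM + 1) scale the change thus declined along the run. Mean WT FPKM also declined along it, at 87.1, 58.2, 36.9, 13.1 and 4.95 in locus order. Since this scale understates the change of low loci, it cannot show whether the fold itself declined.

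Next were 4 runs of 4 risen loci. On NW_011645636.1 (1095210 to 1097923) AOL_s00079g331, AOL_s00079g332, AOL_s00079g333 and a newly called locus lie within 2714 bp on alternating strands, and none has an annotated domain. AOL_s00079g332 had 162, 192 and 49 FPKM in the mutant-labelled libraries, against 0.2, 0 and 0.22 FPKM in WT. Because the intervals are separated by as little as 60 bp and the strandedness of the counting is not given in the sources used here, reads from one of these loci may be counted in the next. A second run, on NW_011645667.1 (142173 to 148658), joins the short-chain dehydrogenases AOL_s00110g45 and AOL_s00110g48, the transcription factor AOL_s00110g46 and AOL_s00110g47 with a DUF3425 domain. AOL_s00110g45 had 66, 50.1 and 148 FPKM in the mutant-labelled libraries, against 0.76, 0.67 and 1.06 FPKM in WT, and the 4 genes rose by 3.96 to 5.45 log2 units.

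Another run of 4 risen loci, on NW_011645726.1 (278203 to 296754), holds genes of wall and sugar chemistry: AOL_s00169g76 with a PAN domain, the glycosyltransferase AOL_s00169g77, the family 16 glycosyl hydrolase AOL_s00169g78 and the WSC-domain protein AOL_s00169g79. AOL_s00169g79 had 12.9, 12.8 and 4.7 FPKM in the mutant-labelled libraries, against 0.3, 0.16 and 0.23 FPKM in WT. All 4 had 1.96 to 12.9 FPKM in the mutant-labelled libraries and at most 0.3 FPKM in each WT library, so these are changes at low level. The last run is part of the arthrosporol cluster, AOL_s00215g280 to AOL_s00215g283 on NW_011645772.1 (886707 to 900192). Here the cytochrome P450 gene AOL_s00215g282 had 651, 498 and 1242 FPKM in the mutant-labelled libraries, against 92.1, 74 and 117 FPKM in WT. The polyketide synthase gene AOL_s00215g283, which builds the 6-methylsalicylic acid skeleton, had 194, 123 and 337 FPKM in the mutant-labelled libraries, against 21, 13 and 7.36 FPKM in WT. Beside these lies the decarboxylase gene AOL_s00215g281, which rose by 2.97. Mutant-labelled library 2 was the lowest and library 3 the highest of its group in AOL_s00215g282 and AOL_s00215g283. Of 11 genes for polyketides, nonribosomal peptides and terpenes 3 rose and 0 fell (27.3%, against 5.3% of all loci). Among the 3 are AOL_s00215g281 and AOL_s00215g283 of this same run. The third was a terpene synthase gene closest to ophiobolin F synthase (AOL_s00081g1). It had 55.5, 93.7 and 59.3 FPKM in the mutant-labelled libraries, against 1.13, 5.97 and 2.57 FPKM in WT.

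**Figure D5:**
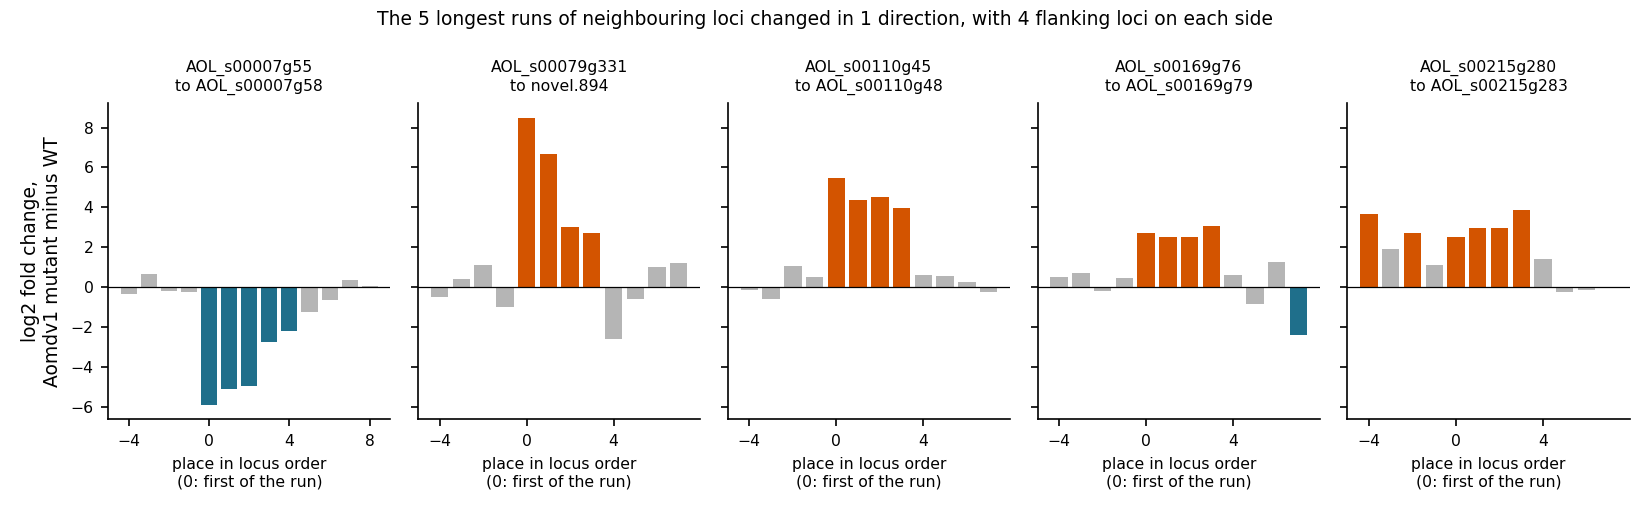
Log2 fold change (mutant-labelled minus WT, vertical axis) of the loci in the 5 longest runs and of the 4 loci kept on each side, in locus order along the scaffold (horizontal axis, 0 is the first locus of the run). Orange bars rose, blue bars fell and grey bars did not pass the threshold. In the methionine permease run the bars shorten from -5.92 at its first locus to -2.21 at its last.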

How the data were processed

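The authors deposited FPKM per locus with 2 decimals, for 3 groups of 3 libraries. No counts were used, since the deposited table gives FPKM values alone, and how reads were aligned, counted and assigned to strands is not given in the sources used here. Functions come from the table's own Swiss-Prot, Pfam and KEGG columns. Coordinates of all 11144 tagged loci equal those of RefSeq. The study speaks of biological replicates, but nothing says that each library had its own culture, so p-values measure only the spread between these samples, which may be technical. No pair of libraries was identical (0 pairs).

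The 9963 loci were taken to log2(FPKM + 1), which understates the change of low loci, and fitted with limma (version 3.58.1, limma-trend, two-sided, R version 4.3.3) without a term for the replicate number. P-values were adjusted over the 9963 loci by Benjamini-Hochberg, with a threshold of 0.05. SE is the standard error of the log2 fold change. The 3 Aovps1 mutant libraries were kept out of the fit, so that the spread is that of the libraries compared. With 3 libraries against 3, the smallest two-sided p-value of exact permutation is 0.1. On simulated data with 200 changed loci of 9963, 0% of changes of 1 or 2 on the log2 scale were recovered and 70% of changes of 3. False calls were 0, 0 and 8. Each simulated locus had its own spread, estimated from these 6 libraries. In the data 528 loci were called, with changes down to 1.25, so these rates do not carry over to the data.

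Depth was estimated from the steps between FPKM values of loci spanning under 700 bp. At the estimated depth, 64.5 to 76.2% of those values came within 0.1 of whole fragments, from 105 values in mutant-labelled library 3 and 232 to 267 in the others. An FPKM of 1 at the median span stands for 22.5 to 26.9 fragments.

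The 56 gene lists come from KEGG maps and annotation keywords and are described by counts and medians, with no set test. Members and lists were chosen with earlier results of these data known. Genes are named by a rule: MDV1 and 6 partner genes, the 10 gains and 10 losses largest in mean FPKM and in fold, in each list at most 3 risers and 3 fallers by adjusted p, and members of the 5 longest runs. Other genes are marked as chosen after their values were seen, or as spore markers. Alternative settings changed the pseudocount (0.1), the filter (none, or a mean of 5 FPKM), the scaling (median-ratio, quantile), the weights per library, the replicate block, or the libraries in the fit (all 9, or each left out). The deviations of same-numbered libraries correlated at -0.011, 0.393 and 0.154, and those of unlike numbers at -0.277 to 0.083. The numbers were not taken as pairs. Whether same-numbered libraries share an effect was not tested.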

Additional observations from a re-analysis of the deposited data

How the results depend on the processing

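The counts of loci depended on which libraries set the spread. Against 300 risen and 228 fallen loci, 585 rose and 439 fell with all 9 libraries in the fit, 1760 and 842 with array weights, and 1147 and 564 with the third library of each group left out, a setting chosen after seeing the data. Leaving out 1 library gave 120 to 350 risen and 102 to 220 fallen loci, the fewest without WT library 2, where 222 of the 528 loci were called in the same direction. Other settings kept both counts within 1.5 times: 272 and 210 with a pseudocount of 0.1, 243 and 202 without a filter, 272 and 269 with median-ratio scaling, and 309 and 251 with quantile scaling. A mean FPKM of at least 5 gave 226 and 152. A block for the replicate number gave 228 and 156. Whether the replicate numbers pair the libraries was not tested, so a call lost under the block is not read further. The share that rose among called loci was 56.8%, against 50.3% with median-ratio scaling, which lowered the median of all loci to -0.05, against 0.08. No gene named by the rule and past the threshold changed its direction in any of these settings. Of 157 genes named by the rule, MDV1, its partner genes and a member of each of the 13 lists with 0 called had no call to lose. Of the others, 57 lost their call without WT library 2, 44 without WT library 1, and 43 and 39 without mutant-labelled libraries 1 and 2. The count was 27 with the replicate block, 25 without a filter, and at most 14 in each other setting. At a mean FPKM of at least 5, 131 named genes stayed called or uncalled as before and 6 lost their call. The remaining named genes fell below that filter and were not tested. Why these settings move the counts was not tested. With 3 libraries a group, changes under 1.25 log2 units were not called.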

Other observations

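Further groups held calls in both directions. Of 28 ABC transporters, pumps driven by ATP, 2 rose and 1 fell (10.7%, against 5.3% of all loci). Both risers, AOL_s00078g522 and AOL_s00097g364, held in 1 of the 6 fits with a library left out, and 0 rose without WT library 3. Of 16 P-type cation ATPases 1 rose and 1 fell (12.5%). A P-type cation ATPase gene, AOL_s00054g648, had 24.4, 32.7 and 27.6 FPKM in the mutant-labelled libraries, against 3.55, 4.09 and 5.97 FPKM in WT (2.41, limma adjusted p = 0.0105). Its neighbour by number, the major facilitator gene AOL_s00054g649, had 85.7, 134 and 35.9 FPKM in the mutant-labelled libraries, against 2.66, 9.85 and 9.83 FPKM in WT. A calcium ATPase gene, AOL_s00080g160, had 3, 4.77 and 1.71 FPKM in the mutant-labelled libraries, against 27.4, 77.5 and 13.6 FPKM in WT, and its call held in 1 of the 6 fits with a library left out. Of 75 major facilitator transporters 1 rose and 4 fell (6.67%; 3 and 5 with quantile scaling, 3 and 2 without mutant-labelled library 3).

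Among 10 tested genes with the tyrosinase domain, copper enzymes that oxidise phenols on the way to melanin, 1 rose and 2 fell. Over all loci 5.3% were called. These genes were chosen after their values were seen. AOL_s00169g262 had 8.13, 4.54 and 7.15 FPKM in the mutant-labelled libraries, against 66.6, 66.9 and 73.7 FPKM in WT (-3.23, SE 0.39, limma adjusted p = 0.00223). AOL_s00043g366, the riser, had 118, 298 and 129.8 FPKM in the mutant-labelled libraries, against 44.8, 48.5 and 44.1 FPKM in WT (1.84, limma adjusted p = 0.0449). Of 65 genes on the maps for sulfur, cysteine and methionine 0 rose and 2 fell (3.08%; 4 and 3 without WT library 3), among them an aromatic aminotransferase gene (AOL_s00215g295) with 5.52, 9.28 and 3.34 FPKM in the mutant-labelled libraries, against 55.5, 47 and 125 FPKM in WT. Of 137 genes with heterokaryon incompatibility, NACHT or ankyrin hits, a family with a role in self and non-self recognition in fungi, 0 rose and 3 fell (2.19%).

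Of the loci kept, 11 were listed at 0 in all 3 mutant-labelled libraries and 4 in all 3 WT libraries. Of these 10 and 4 passed the threshold. Mutant-labelled library 3 had 213 loci listed at 0, against 50 and 45 in libraries 1 and 2 and 23 to 52 in the WT libraries.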
